A study of Homo sapiens with 4 samples.

Results

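The genes described here are 8 components of the Wnt/β-catenin pathway, namely AMER1, APC, APC2, AXIN1, AXIN2, BCL9, BCL9L and BTRC. They were taken by name from the deposited table, which listed all 8 among 2864 genes with values. RNA came from 4 cultures of A375, a human melanoma cell line that carries an activated BRAF kinase, and 1 library was sequenced per condition. A375P was the untreated parental line, A375R was the vemurafenib-resistant strain kept continuously in the drug, A375+DMSO was A375 given the solvent for 48 h, and A375+VEM was A375 given 2 μM vemurafenib, a BRAF inhibitor, for 48 h. All 4 were grown in the same serum-containing medium and were labelled wild type. A375R had been raised by stepwise increases of vemurafenib, and the sources used here do not say whether it was 1 clone or how many passages separated it from A375P.

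In the absence of a Wnt signal, β-catenin is held in a destruction complex built on the scaffolds AXIN1 or AXIN2 and APC or APC2, where kinases phosphorylate it. BTRC, the substrate-binding subunit of a ubiquitin ligase, then recognises phosphorylated β-catenin and marks it for the proteasome, while AMER1 brings APC and the complex to the plasma membrane. When the complex is inactive, β-catenin enters the nucleus, binds TCF/LEF factors and recruits BCL9 or BCL9L as coactivators. AXIN2 is itself a widely used target gene of this step. In melanoma the pathway is known for its ties to pigment cell identity. Only RNA was measured here, so the amount, the phosphorylation and the location of β-catenin are outside these data.

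In the acute pair (A375+VEM and A375+DMSO), BCL9 and APC2 were higher after vemurafenib, and AMER1 and AXIN1 were lower. The sequences before their starts are shown because these 4 genes carry the contrast within that pair. They are RefSeq promoter sequences of GRCh38.p14, printed 5′ to 3′ along the gene, up to 250 bases before the start and ending where an exon annotated in GENCODE v29 begins. Capitals mark CG dinucleotides.
BCL9 (chr1:147541251-147541411, plus strand): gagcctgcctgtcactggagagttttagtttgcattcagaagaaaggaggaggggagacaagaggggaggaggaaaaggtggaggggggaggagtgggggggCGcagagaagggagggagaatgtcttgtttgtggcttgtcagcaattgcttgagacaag
APC2 (chr19:1449871-1450120, plus strand): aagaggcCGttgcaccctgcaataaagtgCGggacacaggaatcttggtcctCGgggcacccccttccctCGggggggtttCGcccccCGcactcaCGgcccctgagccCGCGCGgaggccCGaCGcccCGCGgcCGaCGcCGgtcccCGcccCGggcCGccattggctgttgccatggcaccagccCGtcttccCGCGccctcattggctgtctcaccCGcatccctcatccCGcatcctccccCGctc
AMER1 (chrX:64205745-64205958, minus strand): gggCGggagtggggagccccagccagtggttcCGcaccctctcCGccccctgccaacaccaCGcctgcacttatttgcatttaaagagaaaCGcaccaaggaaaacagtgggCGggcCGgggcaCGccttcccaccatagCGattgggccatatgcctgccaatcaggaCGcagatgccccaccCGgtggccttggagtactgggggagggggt
AXIN1 (chr16:352724-352973, minus strand): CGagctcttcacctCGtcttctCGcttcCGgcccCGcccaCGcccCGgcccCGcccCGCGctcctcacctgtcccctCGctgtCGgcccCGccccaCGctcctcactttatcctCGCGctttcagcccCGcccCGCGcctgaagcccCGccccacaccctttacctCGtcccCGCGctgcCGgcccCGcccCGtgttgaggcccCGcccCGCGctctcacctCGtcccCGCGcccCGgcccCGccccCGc
With the bases not printed included, the BCL9 window of 250 bases held 3 CG dinucleotides, against 26 for APC2, 11 for AMER1 and 35 for AXIN1, and the median over 35116 RefSeq windows of that length was 11.0. The window of the second APC2 entry, at chr19:1452734, held 9, and which start these cells used was not tested. The starts printed for the genes higher in A375+VEM thus included both a CG-poor and a CG-rich one. Of the 8 members 5 had 7 entries in the RefSeq table (APC and APC2 had a pair each), and AXIN2, BCL9L and BTRC had none. The letters CTTTG, the core bound by TCF/LEF factors, were searched on both strands of the whole windows. They occurred in 1 of the 7, that of AMER1, in the bases not printed, and in 42.1% of all windows. The longer CTTTGAT, which contains CTTTG, occurred in none of the 7 and in 2.26% of all windows. GGAATG, the letters bound by TEAD factors of the Hippo pathway, occurred in 1 of the 7, upstream of APC, and in 11.9% of all windows. These matches describe letters only.

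Values are the authors' TPM, reads per gene length scaled to a fixed total per library, and can be compared between genes. Intervals are 95% intervals on the reads (exact Poisson for a level, exact Clopper-Pearson for a ratio of 2 libraries) and cover counting error only. With 1 library per condition no difference had a replicate check and no p-value could be given. A gene was counted as higher or lower if (TPM + 0.1) differed by more than 1.5-fold and the TPM reached 1 in at least 1 of the 2 libraries. Log2 ratios are on that scale, where changes of low genes come out too small, and other ratios are of TPM without the 0.1. In bulk RNA, fewer cells of a type and less RNA per cell cannot be told apart.

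The reads of the table summed to between 1891215 and 2054277 per library, and its genes held 8.48% to 8.94% of the TPM, so the depth of a whole library is not given by these sums. Of the melanoma markers in the table, AXL was highest in A375P at a TPM of 659 and lowest in A375+VEM at 92.4, with 575 in A375R and 358 in A375+DMSO. BCL2A1 stood out in A375R at 37.5, against 4.24 to 8.15 elsewhere, while ABCB5 had 6 or fewer reads per library. The markers MLANA, PMEL, TYR and SOX10 were not analysed here. The fibroblast genes ACTA2 and BGN and the hepatocyte genes ALB and APOA1 were above a TPM of 1 in all 4 libraries, while the B cell genes BLK and BANK1 and the myeloid gene AIF1 stayed under it. The summed TPM of the 3 fibroblast genes was between 74.7 and 114, but its members moved apart: ACTA2 was highest in A375P at a TPM of 92.2 and between 28.3 and 40.1 elsewhere, while BGN was lowest there at 21.1 and highest in A375+DMSO at 74.3. That of the 2 hepatocyte genes was between 53.8 and 74.5. Their part in the results was not tested. The 7 cell division genes ANLN, ASPM, AURKA, AURKB, BIRC5, BUB1 and BUB1B were all lower in A375+VEM than in A375+DMSO, by 11.3-fold for ANLN to 77.1-fold for BIRC5, and all 7 were lower than in A375P too. Of all genes compared, 19.7% were lower in A375+VEM than in A375+DMSO and 25.3% lower than in A375P. Against A375P, 4 of the 7 were higher in A375R and 5 in A375+DMSO, with 0 lower in both. Of all genes, 26.8% were higher in each, and 17.5% and 18.9% were lower. Between A375R and A375+DMSO 0 of the 7 were past 1.5-fold, where 20.5% of all genes were. These differences lay beside every value set against A375P or A375+VEM here, and their part in them was not tested.

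**Figure D1:**
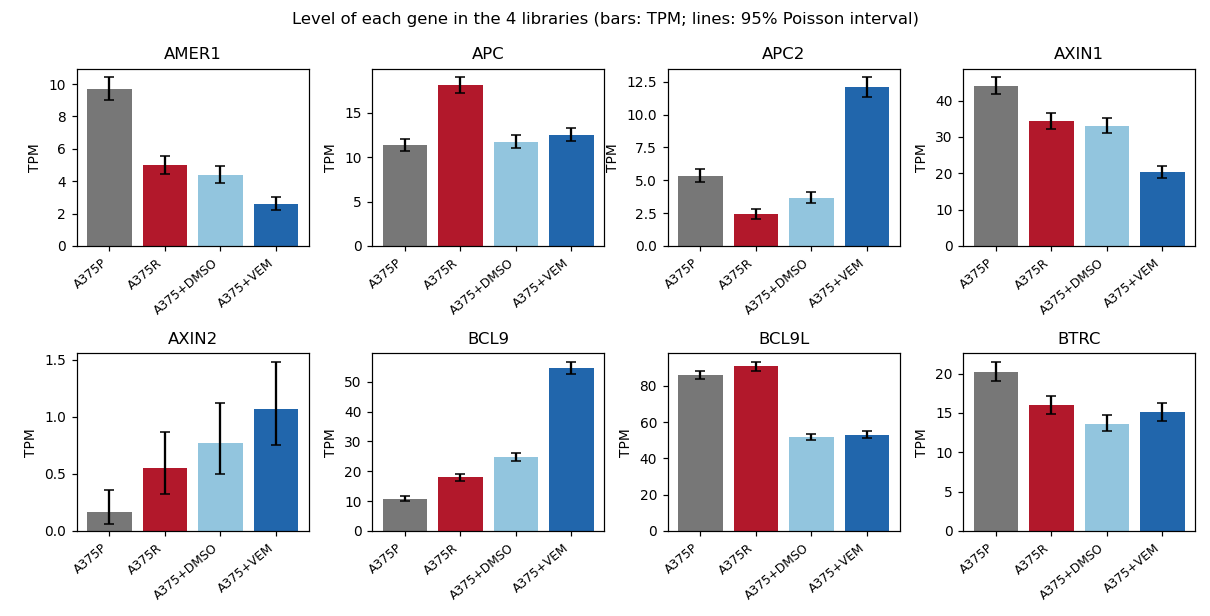
Each panel plots the TPM of 1 gene on a linear axis from 0 in A375P, A375R, A375+DMSO and A375+VEM, with the 95% Poisson interval of its reads. BCL9 was highest in A375+VEM at 54.5 and lowest in A375P at 10.7, AXIN1 and AMER1 had the opposite order of these 2 libraries, and AXIN2 stayed near or under 1.

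The scaffold APC, which maps to chr5:112043202-112181936 (hg19, plus strand), had a TPM of 11.4 in parental A375P, 18.1 in resistant A375R, 11.7 after DMSO alone and 12.5 after vemurafenib. A375R stood above the other three, which lay close together. The level in A375R was 1.59 times that in A375P (95% interval 1.47 to 1.72) and 1.54 times that in A375+DMSO (1.43 to 1.67). The call against A375P sat near the threshold: its log2 ratio of 0.66 became 0.58 with median-of-ratios size factors and 0.57 with the median ratio set to 1, both short of 1.5-fold. A375+VEM was at 1.07 of A375+DMSO (0.978 to 1.16), within counting error, and among the 3 libraries other than A375R each direction turned under TMM, median-of-ratios size factors and the median ratio set to 1.

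APC2, the second APC gene, which shares the ability to bind β-catenin, maps to chr19:1450148-1473243 (hg19, plus strand). It was covered by 465 reads in A375P and 190 in A375R, and 297 in A375+DMSO against 974 in A375+VEM, at a TPM of 5.35, 2.42, 3.66 and 12.1. It was thus lowest in A375R and highest in A375+VEM, and the interval of each neighbouring ratio in this order left out 1. After vemurafenib the level was 3.30 times that after DMSO alone (95% interval 2.90 to 3.77), and against A375P it was 2.26 (2.02 to 2.53). A375R was at 0.452 of A375P (0.380 to 0.537) and at 0.661 of A375+DMSO (0.548 to 0.795), which on the scale of (TPM + 0.1) fell just short of 1.5-fold with a log2 ratio of -0.58.

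The last 44 bases of APC2 overlap C19orf25, which lies on the minus strand, and no source used here says whether reads were counted by strand. The TPM of C19orf25 was 37.6 in parental A375P, 19.6 in resistant A375R, 23.3 after DMSO alone and 20.1 after vemurafenib. Both genes were lower in A375R than in A375P, whereas from A375+DMSO to A375+VEM, where APC2 was higher, C19orf25 was not. Its share in the reads of APC2 was not tested. In GENCODE v29, which is on GRCh38, APC2 also overlaps the antisense gene AC027307.2, and BCL9L the genes CXCR5 and UPK2 on the other strand. APC overlaps AC008575.1 and AXIN2 overlaps AC004805.1, both protein-coding genes on the same strand, which counting by strand would not separate. The overlapping genes named from GENCODE v29 were not analysed here.

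AMER1, the membrane anchor of APC, maps to chrX:63404997-63425624 (hg19, minus strand). Its TPM was 9.69 in A375P and 4.97 in A375R, and 4.38 in A375+DMSO against 2.58 in A375+VEM. A375P was the highest and A375+VEM the lowest, 3.75-fold apart, and the 2 between them did not differ beyond counting error, with a ratio of A375R to A375+DMSO of 1.13 (95% interval 0.966 to 1.33). AMER1 was 1.95-fold lower in A375R than in A375P (ratio 0.513, 0.449 to 0.586) and 1.70-fold lower in A375+VEM than in A375+DMSO (ratio 0.589, 0.485 to 0.712). The library without drug but with solvent was also lower than A375P, by 2.21-fold.

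AXIN1, the main scaffold of the complex, maps to chr16:337440-402676 (hg19, minus strand). Its TPM was 44.1 in parental A375P, 34.4 in resistant A375R, 33.1 after DMSO alone and 20.3 after vemurafenib, the same order of libraries as for AMER1. In A375+VEM it was 1.63-fold lower than in A375+DMSO (ratio 0.613, 95% interval 0.553 to 0.680) and 2.17-fold lower than in A375P. A375R was at 0.780 of A375P (0.718 to 0.847), not past 1.5-fold, and at 1.04 of A375+DMSO (0.95 to 1.14).

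AXIN2, the paralog of AXIN1 and target of β-catenin, maps to chr17:63524681-63557740 (hg19, minus strand). It was covered by 6 reads in A375P and 18 in A375R, and 26 in A375+DMSO against 36 in A375+VEM, at a TPM of 0.165, 0.549, 0.768 and 1.07. A375P was the lowest library and A375+VEM the highest, all at low levels. The ratio of A375+VEM to A375P was 6.48 (95% interval 2.70 to 18.8), whereas the acute pair had a ratio of 1.39 (0.819 to 2.40), within counting error. A375R was at 3.32 times A375P (1.26 to 10.2), but neither library reached a TPM of 1, so this pair was not counted. A375R and A375+DMSO did not differ beyond counting error (ratio 0.715, 0.369 to 1.36). The count against A375P in A375+VEM also rests on the filter, because under TMM and median-of-ratios size factors the level fell under 1, at log2 ratios of 1.96 and 1.99.

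BTRC, the ligase subunit, maps to chr10:103113790-103317078 (hg19, plus strand). Its TPM was 20.2 in parental A375P, 16 in resistant A375R, 13.7 after DMSO alone and 15.1 after vemurafenib. It varied least of the 8, with a ratio of 1.48 between the highest and the lowest library, and passed 1.5-fold in none of the comparisons as scaled by the authors. Against A375P it was past it in A375+DMSO under each of the 3 other scalings, at log2 ratios of -0.64 to -0.66, and in A375+VEM under TMM and median-of-ratios size factors, at -0.64 and -0.62. A375+VEM was at 0.945 of A375R (95% interval 0.853 to 1.05) and at 1.11 of A375+DMSO (0.995 to 1.23), both within counting error, the latter turning to a log2 ratio of -0.005 under TMM.

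The coactivator BCL9, which maps to chr1:147013271-147098020 (hg19, plus strand), had a TPM of 10.7 in A375P and 17.9 in A375R, and 24.6 in A375+DMSO against 54.5 in A375+VEM. Every neighbouring pair in this order differed beyond counting error. After vemurafenib the level was 2.21 times that after DMSO alone (95% interval 2.07 to 2.37), and in A375R it was 1.67 times that in A375P (1.5 to 1.86). The 2 libraries without vemurafenib were as far apart as the acute pair, with a ratio of A375+DMSO to A375P of 2.29 (2.07 to 2.54). Against A375+DMSO the direction in A375R turned, with a ratio of 0.727 (0.665 to 0.794).

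BCL9L, its paralog, maps to chr11:118766849-118781613 (hg19, minus strand) and was the highest of the 8 in A375P, A375R and A375+DMSO. Its TPM was 85.9 in parental A375P, 90.8 in resistant A375R, 51.9 after DMSO alone and 53.2 after vemurafenib, so the libraries fell into a higher and a lower pair that did not follow the drug. A375+VEM and A375+DMSO did not differ beyond counting error (ratio 1.02, 95% interval 0.975 to 1.08), and its log2 ratio of 0.03 became -0.07 to -0.11 under the other scalings. A375R was at 1.06 of A375P (1.02 to 1.1), and with median-of-ratios size factors or the median ratio set to 1 its direction turned, at log2 ratios of -0.001 and -0.02. Against A375+DMSO, A375R was 1.75-fold higher (1.68 to 1.83).

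**Figure D2:**
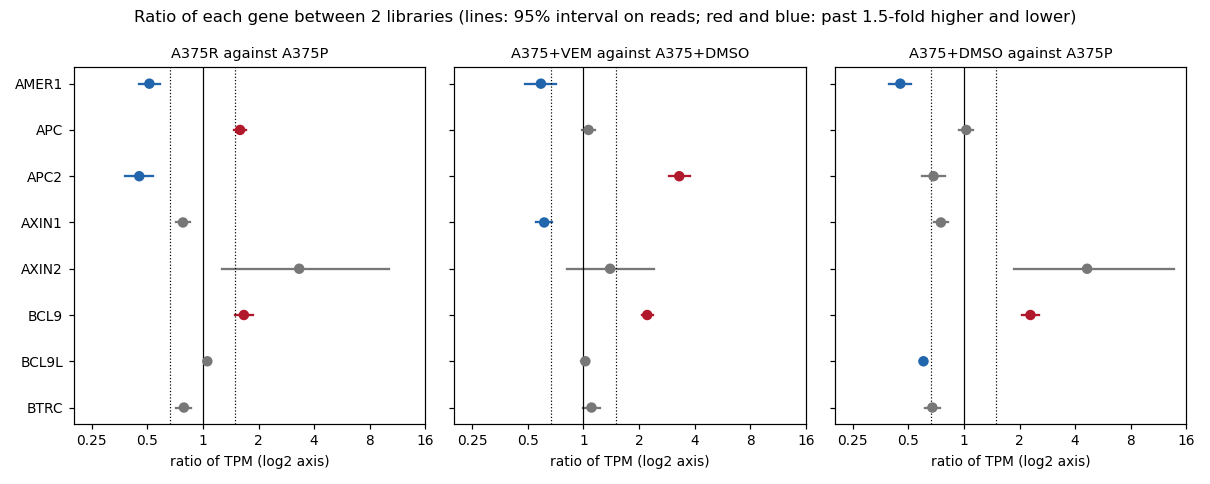
Points are the ratios of TPM of the 8 genes in 3 comparisons on a log2 axis, lines are 95% intervals on the reads, dotted lines mark 1.5-fold, and red and blue mark genes past it (AXIN2 is grey where its TPM was under 1). APC2 lay at 0.452 in the resistant pair (A375R and A375P) and at 3.30 in the acute pair (A375+VEM and A375+DMSO), while AMER1 lay under 1 in all 3.

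The question of the first pair was which genes mark persistent resistance. A375R was also kept in vemurafenib and A375P was untreated. Resistance, drug exposure and separate culture cannot be told apart in this pair. In A375R against A375P, 7 of the 8 members could be compared and 4 were past 1.5-fold, where 44.3% of all 1689 genes compared were. APC and BCL9 were higher and AMER1 and APC2 were lower, against a background of 26.8% higher and 17.5% lower. The median log2 ratio of the 7 was -0.34, and that of all genes compared was 0.10. With A375+DMSO as the control of A375R, 2 of 7 members were past 1.5-fold, APC and BCL9L, both higher, where 20.5% of all genes were past it, 10.5% higher and 9.99% lower. APC2 was also past it, on the lower side, with a pseudocount of 0.01 (-0.60) and with a median ratio of 1 (-0.59). APC was the member higher against both controls as scaled by the authors. Its call against A375P was lost with median-of-ratios size factors (0.58) and with a median ratio of 1 (0.57). Under each of these, 3 members were past 1.5-fold against A375P, 1 higher and 2 lower. Of all genes, 43.8% and 43.2% were past it there. AMER1 turned to a log2 ratio of 0.18 and BCL9 to -0.46 against A375+DMSO.

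The second pair asked which genes respond to the drug within 48 h. In A375+VEM against A375+DMSO, 4 of the 8 members were past 1.5-fold, where 46.2% of all 1784 genes were. APC2 and BCL9 were higher and AMER1 and AXIN1 lower, against backgrounds of 26.5% and 19.7% (21.4% and 24.2% under TMM, where the same 4 calls held). The median log2 ratio was 0.12 over the members and 0.11 over all genes. With A375P as the control of A375+VEM, 6 of 8 were past 1.5-fold, where 62.1% of all genes were. These 6 were the same 4 in the same directions, with AXIN2 higher and BCL9L lower besides. Higher calls made up 36.9% of all genes and lower calls 25.3%. Under TMM AXIN2 was no longer counted and BTRC was lower, which made 2 members higher and 4 lower. Of all genes, 30.3% and 32.5% were then higher and lower. Median-of-ratios size factors gave the same member counts, where 31.1% and 31.5% of all genes were. The libraries given vemurafenib, A375+VEM and A375R, also differed from each other: 6 of 8 members were past 1.5-fold, where 54.7% of all genes were. APC2, AXIN2 and BCL9 were higher in A375+VEM, against a background of 30.8%, and AMER1, AXIN1 and BCL9L were lower, against 23.9%. These comparisons share libraries, so their counts do not bear on each other independently.

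The 2 libraries without vemurafenib were compared in the same way. In A375+DMSO against A375P, 3 of 7 members were past 1.5-fold, where 45.7% of all 1720 genes were. BCL9 was higher, against a background of 26.8%, and AMER1 and BCL9L were lower, against 18.9%. APC2 and BTRC were near the threshold at log2 ratios of -0.53 and -0.56, and under each of 3 other scalings both were past it, which made 5 of 7, where 46.2% to 46.5% of all genes were. AMER1 and BCL9 thus differed between the untreated and the solvent culture by at least as much as within the study's pairs.

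**Figure D3:**
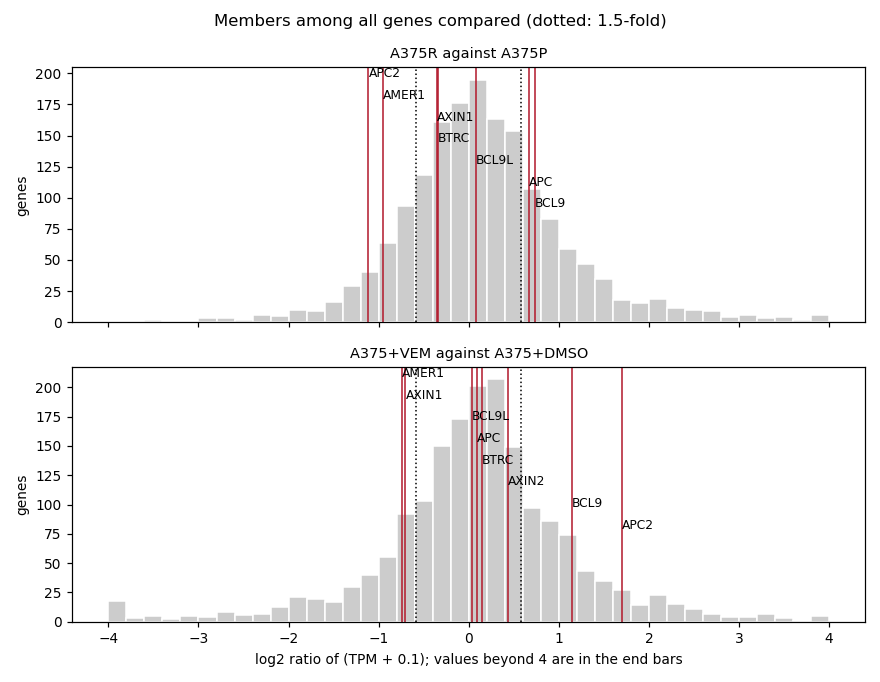
Grey bars count all genes compared by their log2 ratio of (TPM + 0.1) in A375R against A375P (above) and A375+VEM against A375+DMSO (below), red lines mark the members and dotted lines 1.5-fold. The members drawn lay between percentiles 6.04 and 78.7 of all genes compared above, and between 15.5 and 93.9 below. Of those drawn, APC2 was farthest out in both pairs, at -1.11 and 1.70. AXIN2 is not drawn above, because its TPM was under 1 in A375R and A375P.

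The ratio of 2 paralogs within a library does not depend on how libraries are scaled to each other, and 3 such pairs could be formed. APC2 made up 31.9% of the summed TPM of APC and APC2 in A375P and 11.8% in A375R, and 23.8% in A375+DMSO against 49.2% in A375+VEM. The ratio of APC2 to APC was 3.51-fold lower in A375R than in A375P (change of the ratio 0.285, exact conditional 95% interval 0.235 to 0.344). It was 3.10 times that of A375+DMSO in A375+VEM (2.65 to 3.63). The ratio of APC2 to APC was also lower in A375R and higher in A375+VEM when the other library without drug was the control, at changes of 0.428 (0.349 to 0.524) and 2.06 (1.79 to 2.37).

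BCL9L was 8.0 times as abundant as BCL9 in parental A375P, 5.07 times in resistant A375R, 2.11 times after DMSO alone and 0.975 times after vemurafenib. The last interval ran from 0.926 to 1.03, so the coactivators were at the same level there within counting error. From A375+DMSO to A375+VEM the ratio changed by 0.462 (95% interval 0.425 to 0.503), and from A375P to A375R by 0.634 (0.566 to 0.710). From A375P to A375+DMSO it changed by 0.263 (0.236 to 0.294), a larger step than either, and A375R against A375+DMSO went the other way, at 2.41 (2.18 to 2.66). The summed TPM of BCL9 and BCL9L was 96.7 in A375P and 109 in A375R, and 76.5 in A375+DMSO against 108 in A375+VEM.

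AXIN2 was at 0.373% of the summed TPM of the AXIN genes in parental A375P, 1.57% in resistant A375R, 2.27% after DMSO alone and 5.01% after vemurafenib. AXIN1 thus carried nearly all AXIN RNA in every library. The ratio of AXIN2 to AXIN1 in A375+VEM was 2.27 times that of A375+DMSO (95% interval 1.32 to 3.96) and 14.1 times that of A375P (5.82 to 41.0). In A375R it was 4.26 times that of A375P (1.61 to 13.1), whereas A375R and A375+DMSO did not differ beyond counting error, at 0.688 (0.353 to 1.31). The summed TPM of both AXIN genes was 44.3 in A375P and 35 in A375R, and 33.9 in A375+DMSO against 21.4 in A375+VEM.

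**Figure D4:**
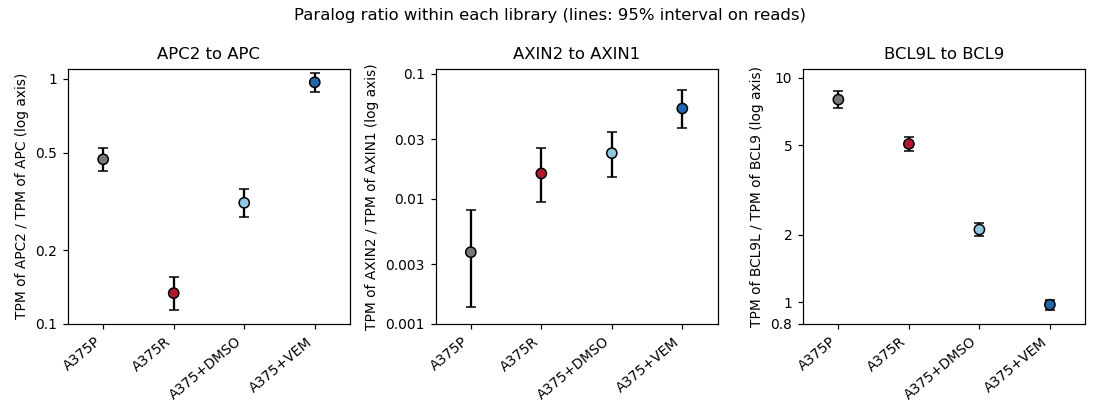
Points are the TPM of APC2 over APC, AXIN2 over AXIN1 and BCL9L over BCL9 within each of the 4 libraries on log axes, with 95% intervals on the reads. In A375+VEM the APC2 to APC ratio of 0.967 and the BCL9L to BCL9 ratio of 0.975 were both near 1, and in A375P they were 0.469 and 8.0.

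A list of 16 other genes of the pathway comprised 11 regulators and 7 reported β-catenin targets, with APCDD1 and BAMBI in both. All 16 were in the table and 10 reached a TPM of 1. The other 6 had 0 to 7 reads per library: AMER2 and AMER3, the relatives of AMER1, the Wnt inhibitor APCDD1 and its relative APCDD1L, and the transcription factors ASCL2 and ATOH1. AMER3 had 0 reads in A375R and A375+DMSO, for which the limit set for a count of 0 was 3 reads, a TPM of 0.0599 and 0.0579.

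In A375R against A375P, 5 of 10 listed genes were higher and 0 were lower, where 26.8% and 17.5% of all genes were, and their median log2 ratio was 0.57, against 0.10 over all genes. They were the corepressor AES, the β-arrestin ARRB2, which binds Dishevelled, the pseudoreceptor BAMBI, CACYBP, which links β-catenin to a SIAH1 ubiquitin ligase, and the drug efflux pump ABCB1. ABCB1, at a log2 ratio of 0.61, was short of 1.5-fold under all 3 other scalings (0.52 to 0.54), and AES was short of it with a median ratio of 1 (0.57). ATP6AP2, at -0.51, was past it on the lower side with median-of-ratios size factors (-0.59) and with a median ratio of 1 (-0.60). The counts were then 4 higher and 0 lower under TMM, where 24% and 19.8% of all genes were. They were 4 and 1 with median-of-ratios size factors (23.8% and 20.1% of all genes) and 3 and 1 with a median ratio of 1 (22.9% and 20.3%). Against A375+DMSO none of these 5 was higher, BAMBI was lower, and ARHGEF4, an exchange factor that APC binds, was higher. That made 2 of 10 past 1.5-fold, where 20.5% of all genes were, 10.5% higher and 9.99% lower. Against A375P 44.3% of all genes were past it. The calls in the list, as over all genes, thus depended on which library without drug was the control.

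In A375+VEM against A375+DMSO, 3 of the 10 were higher and 4 lower, where 26.5% and 19.7% of all genes were, with a median log2 ratio of -0.25 against 0.11 over all genes. BAMBI had a TPM of 13.6 in parental A375P, 23.5 in resistant A375R, 44.0 after DMSO alone and 99.2 after vemurafenib, the same order of libraries as for BCL9. AES followed that order as well, at 167, 266, 336 and 525. Its log2 ratio of 0.65 in the acute pair became 0.50 to 0.54 under the 3 other scalings, short of 1.5-fold. That left 2 of the 10 higher, where 21.4% to 22.8% of all genes were. The third gene that was higher, ATP6AP2, which couples the Wnt coreceptor LRP6 to the vacuolar ATPase, had a ratio of 1.76 (95% interval 1.66 to 1.87).

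The 4 lower genes were BIRC5, BMP4, ARHGEF4 and CACYBP. BMP4 had 57 reads in A375+DMSO and 17 in A375+VEM. With a TPM of at least 5, BMP4 and ARHGEF4 were not compared. That left 3 of the list higher and 2 lower, where 23.4% and 19% of all genes were. ARHGEF4 had a TPM of 13.8 in A375P and 13.3 in A375R, and 4.95 in A375+DMSO against 2.43 in A375+VEM, with A375+DMSO on the low side as for BCL9L. BIRC5, the apoptosis inhibitor survivin, is also in the list of cell division genes, and it had 1398 reads in A375+DMSO and 18 in A375+VEM. Of the 4 listed targets that could be compared, BIRC5 and BMP4 were lower, BAMBI was higher and ABCB1 was not past 1.5-fold, at a log2 ratio of -0.37, so they went both ways.

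**Figure D5:**
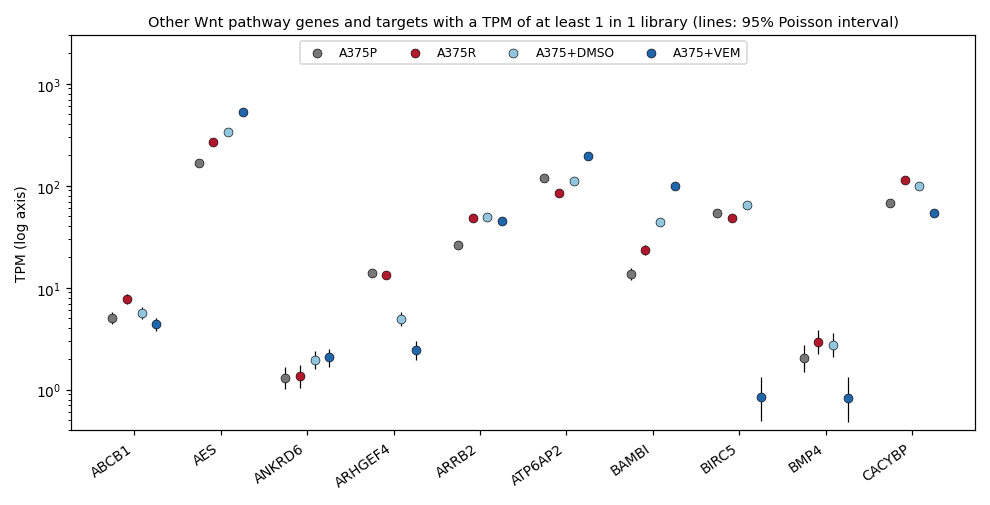
Points are the TPM on a log axis of the 10 listed genes that reached a TPM of 1, 1 colour per library, with 95% Poisson intervals. AES and BAMBI were lowest in A375P and highest in A375+VEM, and BIRC5 was at 0.840 in A375+VEM against 47.9 to 64.7 in the other libraries.

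For the 5 members past 1.5-fold in at least 1 of the study's pairs, the protein-coding genes with the most similar profile over the 4 libraries were looked up among 1645 candidates, by the root mean square difference of centred log2 levels. Nearest to AXIN1 was ANAPC1, a subunit of the anaphase-promoting complex, at 0.019, followed by ARMC6 and ATP11A. Nearest to BCL9 were ACCS and C1orf53, both at 0.051, and ALAD, an enzyme of haem synthesis. APC was nearest to ARAP3 at 0.049, B3GNT2 and AKAP2. AMER1 was nearest to AMD1, an enzyme of polyamine synthesis, at 0.10, then ARHGAP9 and ABLIM1. For APC2 the nearest gene was ANO9 at 0.075, followed by C2 and C1QTNF9B, all of them low, with a TPM of 3.55 or less. With 4 libraries such likeness is a description of these profiles only.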

How the data were processed

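RNA of 4 A375 cultures was sequenced, with 1 library per condition, and conditions were taken from the sample labels. The authors deposited a whole-number read count per gene without normalization and a TPM, which is the count over gene length scaled per library (TPM times length over count was constant in each library). The submitters' processing notes name HISAT2, HISAT, TopHat2, Bowtie2 and the build hg19. The counting program and its strand setting were not given in the sources used here. The gene list is held here only in an alphabetical part, and 1 incomplete row was left out. All 8 gene IDs were found in RefSeq.

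The 8 genes and the other lists were chosen with earlier results of these data known. Named were the 8 genes, the listed genes, and for each of the 8 past 1.5-fold in a pair of the study the 3 coding genes of nearest profile. Ratios were taken on (TPM + 0.1) for genes reaching a TPM of 1 in either library compared. Paralog ratios used the exact conditional interval of the odds ratio. No test between conditions was possible. The calls and the intervals of ratios and odds ratios were tested on counts simulated with Poisson error only, and the other steps were not. Counts as high as those of BCL9L were left out of the simulated odds ratios. Alternatives were pseudocounts of 1 and 0.01, no filter, a TPM of at least 5, 2-fold, TMM (edgeR 4.0.16), median-of-ratios size factors (DESeq2 1.42.0), a median ratio of 1, and the other control. Software was R 4.3.3 and Python 3.11.15 with scipy 1.17.1, numpy 2.4.6, matplotlib 3.10.9 and pandas 2.3.3.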

Additional observations from a re-analysis of the deposited data

Results flagged for a closer look

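APC2 was past 1.5-fold in both pairs of the study, but on opposite sides. In A375R its log2 ratio to A375P was -1.11, and in A375+VEM its log2 ratio to A375+DMSO was 1.70. Whether these effects differ was not tested, since each condition had 1 library. Exchanging the controls left the signs as they were, at -0.58 in A375R and 1.16 in A375+VEM. None of the other 7 genes was past 1.5-fold in opposite directions in these pairs.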

How the results depend on the processing

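No paired analysis was possible because the labels carry no replicate numbers and each condition had 1 library. Against the authors' scaling, TMM, median-of-ratios size factors and a median ratio of 1 moved the median log2 ratio of all genes by -0.07, -0.08 and -0.10 in the resistant pair (A375R and A375P), by -0.15, -0.10 and -0.11 in the acute pair (A375+VEM and A375+DMSO), and by -0.22, -0.20 and -0.15 between A375+VEM and A375P. The sign of single members held in 105 of 120 cases under these scalings.

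For the 8 members, a threshold of 2-fold, stricter by construction, left 1 in the resistant pair, 2 in the acute pair and 0 in A375R against A375+DMSO, where 22.2%, 26.4% and 8.64% of all genes were past 2-fold. With A375+DMSO as the control of A375R the count was 2, and there AMER1 reversed to 0.18 and BCL9 to -0.46. All 3 scalings gave 5 in A375+DMSO against A375P, where 46.2% to 46.5% of all genes were called. For the list of other Wnt genes, 2-fold left 0 in the resistant pair, 3 in the acute pair, 1 in A375R against A375+DMSO and 5 in A375+VEM against A375P, where 42% of all genes were past 2-fold, and TMM also gave 5 in the last, where 62.8% were called. Without the filter, which admits genes of a few reads, the list had 8 in A375+DMSO against A375P and 4 in A375R against A375+DMSO, where 44.2% and 28.6% of all genes were called. On (TPM + 1) the change of the APC2 to APC ratio in A375R against A375P was 0.349, and that of AXIN2 to AXIN1 was 2.01 in A375+DMSO and 3.76 in A375+VEM, both against A375P. AMER1 in the acute pair and AXIN2 in A375+VEM against A375P were not compared at a TPM of at least 5, and without the filter AXIN2 was higher than A375P in A375R and A375+DMSO. At 6 to 36 reads, AXIN2 is the member most limited by depth. Except where the alternative's construction shows it, the cause was not tested.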

Other observations

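Among the 8 members, the profiles over the 4 libraries that lay nearest to each other were BCL9L and BTRC, with a root mean square difference of 0.26 in centred log2 level, followed by AMER1 and AXIN1 at 0.30. This measure is small for genes of small range. BCL9L was highest in A375R and BTRC in A375P. The paralogs lay farther apart, at 1.01 for APC and APC2, 1.16 for BCL9 and BCL9L and 1.17 for AXIN1 and AXIN2. BCL9 was nearer to AXIN2, at 0.33, than to BCL9L. The range of each member over the 4 libraries was set beside that of 1817 genes that reached a TPM of 1 in some library. BCL9 was at percentile 81.1 and APC2 at 80.0, while BTRC was at 17.6 and APC at 24.3.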
